A study of Mus musculus with 6 samples.

Results

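The posterior HoxA and HoxD genes are those of paralog groups 9 to 13 in 2 of the 4 mouse Hox clusters: *Hoxa9*, *Hoxa10*, *Hoxa11*, *Hoxa13*, *Hoxd9*, *Hoxd10*, *Hoxd11*, *Hoxd12* and *Hoxd13*. They were chosen by name, with earlier results of these data known, and each was represented by its RefSeq transcript with the highest mean count. All 9 were found among the 25043 genes to which the rows of the RNA-Seq table could be matched, and the table held 39 Hox genes in all. RNA had been sequenced from 3 samples of wild type (WT) and 3 of *Anp32e* null mouse embryonic fibroblasts (MEFs), at a passage number below 8. MEFs are primary cells grown out of dissociated embryos. The study describes its cell culture samples as biological replicates and its null allele as one made and published earlier. The strain, the age of the embryos, whether the samples came from different embryos and the body parts the cells came from are not given in the sources used here. The value used for each transcript is the authors' mean normalized count over all 6 libraries. It pools both genotypes and carries no value per library. A gene at 1 level in both genotypes and a gene that is high in one and low in the other therefore cannot be told apart by it, and no difference between WT and *Anp32e* null MEFs is described.

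Hox genes encode homeodomain transcription factors and lie in clusters in which the order of the genes follows the order of their domains along the body axis. Genes of the posterior paralog groups are expressed toward the tail end of the trunk, and those of the HoxA and HoxD clusters are also used to pattern the limbs. There, groups 9 and 10 act in the upper limb segment, group 11 in the forearm and lower leg, and group 13 in the hands and feet. Cultured fibroblasts are known to keep part of the Hox code of the body site they were taken from.

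All 9 genes were expressed. The size factors by which the counts were divided to correct for depth lay between 0.909 and 1.13, and none of them is tied to a sample. Positions are those of the GENCODE transcripts on GRCm38. *Hoxd13* (chr2:74668310-74671599), the last gene of the HoxD cluster and a regulator of digit formation, had the highest mean, 4829 normalized counts. *Hoxd11* (chr2:74682323-74684168), which with its HoxA paralog shapes the forearm bones and the kidney, had 1079.85. *Hoxd12* (chr2:74675013-74677705), which acts with *Hoxd13* in the digits, had 592 normalized counts. HoxD means thus differed widely between neighbours. *Hoxd10* (chr2:74691924-74695105), which also patterns motor neurons of the hindlimb level, had 348. *Hoxd9* (chr2:74697727-74700208), which acts with *Hoxa9* in the upper limb segment, had the lowest mean of the 9 genes, 133 normalized counts. In the HoxA cluster, *Hoxa10* (chr6:52231197-52234939), which also acts in the uterus, had a mean of 2049 normalized counts and *Hoxa11* (chr6:52242106-52245810) of 1822. *Hoxa9* (chr6:52223100-52227370), known also for its part in blood stem cells and leukemia, had 1047, and *Hoxa13* (chr6:52258853-52260880), which acts in digits and the genital tubercle, had 549.6. The HoxA means were thus within a narrower range than the HoxD means. No mean has an SD, since values per library are not used here. The counting error alone, from the fewest reads each mean allows, was between 0.616% for *Hoxd13* and 3.72% for *Hoxd9*, and it does not include the spread between samples.

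Because longer transcripts collect more reads, levels of different genes were compared per kilobase (kb) of exon. *Hoxd13* stood at 1945 normalized counts per kb (95% counting interval 1921 to 1968) and *Hoxd11* at 972 (947 to 997). *Hoxa10* and *Hoxa11* followed at 799 (784 to 814) and 797 (781 to 813). Their ratio was 1.00 with a 95% counting interval from 0.976 to 1.03, so these neighbours in the order do not differ beyond counting error. *Hoxa13* had 419.9 normalized counts per kb, *Hoxa9* 325, *Hoxd12* 233, *Hoxd10* 192 and *Hoxd9* 62.1. For each of the other 7 pairs of neighbours in this order the counting interval of the ratio lay above 1, the smallest ratios being 1.22 for *Hoxd11* over *Hoxa10* (1.18 to 1.26) and for *Hoxd12* over *Hoxd10* (1.15 to 1.29). The order depends on the length taken for a gene. With the exons of all annotated transcripts of a gene joined, *Hoxd11* stood at 256 normalized counts per kb, *Hoxa13* at 222 and *Hoxa9* at 188, and *Hoxa10* at 627, while *Hoxd13* stayed the highest and *Hoxd9* the lowest. Whether these steps exceed the spread between samples cannot be given from a pooled mean. The levels spanned 31.3-fold from *Hoxd9* to *Hoxd13*, against 2.46-fold within the HoxA genes. The HoxA span was 4.25-fold with joined exons and 4.28-fold with the transcript of the highest level per kb, while the span of all 9 genes was the same with each length. *Hoxd13* alone made up 33.9% of the summed level of the 9 genes per kb. The median was 608 normalized counts per kb over the 4 HoxA genes and 233 over the 5 HoxD genes, although the HoxD genes together held 59.3% of the sum.

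**Figure D1:**
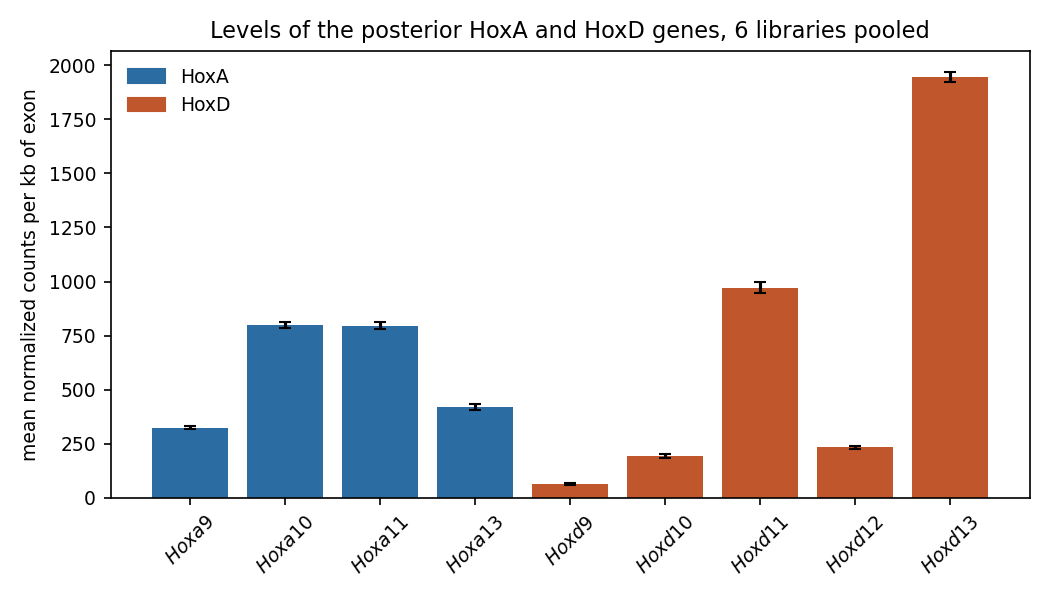
Bars give the authors' mean normalized count over 6 libraries divided by the exon length in kb, for 4 HoxA genes (blue) and 5 HoxD genes (orange), and error bars are 95% counting intervals, which leave out the spread between samples. *Hoxd13* stands highest at 1945 and *Hoxd9* lowest at 62.1, while *Hoxa10* and *Hoxa11* are level with each other.

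For 3 of the genes the table lists a pair of transcripts. Both transcripts of *Hoxa9* are matched to the same exons of 3226 bases, and their means were 1047 and 1034 normalized counts. As these means differ, the exons that the authors counted were presumably not the same for both. The length taken for *Hoxa9*, and its level per kb, are uncertain to that extent. The *Hoxa10* transcripts begin at different first exons and share 859 bases. The longer one, of 2565 bases, had a mean of 2049 and the shorter one, of 1436 bases, of 1995, which makes 799 and 1389 normalized counts per kb. With the shorter transcript, *Hoxa10* would thus stand above *Hoxd11*. The *Hoxd11* transcripts share 266 bases. The coding transcript of 1111 bases had a mean of 1079.85 and the noncoding one of 3367 bases of 889.8, or 972 and 264 normalized counts per kb. The place of *Hoxd11* as the second highest gene thus holds for its short coding transcript and not for the long one. Of all transcripts with reads, 22.9% had the same mean as another transcript of their gene, but none of these 3 pairs did. The exon bases that the transcripts of a pair share may have been counted for both.

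The upstream sequences of the genes at both ends of the order are shown because their levels differ most. Those of both starts of *Hoxd11* are shown because its place in the order depends on the transcript taken. The means of these transcripts, 1079.85 and 889.8, were closer to each other than their levels per kb. Those levels rest on lengths of 1111 and 3367 bases. Each run gives the 250 bases before a RefSeq start on GRCm38.p6, 5′ to 3′ on the strand of the gene, which is the plus strand for all 4. Capitals mark every match, on either strand, to TATAAA (the core of the TATA box), GGGCGG (the GC box, read by SP1) or CCAAT (read by NFY). Matches may overlap each other, also across the strands. The RefSeq starts of *Hoxd13* and *Hoxd9* differ from the GENCODE starts given above. The *Hoxd13* window ends some way before its GENCODE start, and the *Hoxd9* window runs past its own GENCODE start.
*Hoxd13*, chr2:74667975-74668224: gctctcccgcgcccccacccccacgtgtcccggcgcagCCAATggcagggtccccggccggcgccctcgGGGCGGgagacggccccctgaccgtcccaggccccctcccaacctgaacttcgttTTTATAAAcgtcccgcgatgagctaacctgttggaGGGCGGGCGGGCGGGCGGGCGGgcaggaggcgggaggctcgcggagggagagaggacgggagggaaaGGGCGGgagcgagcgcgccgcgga
*Hoxd9*, chr2:74697513-74697762: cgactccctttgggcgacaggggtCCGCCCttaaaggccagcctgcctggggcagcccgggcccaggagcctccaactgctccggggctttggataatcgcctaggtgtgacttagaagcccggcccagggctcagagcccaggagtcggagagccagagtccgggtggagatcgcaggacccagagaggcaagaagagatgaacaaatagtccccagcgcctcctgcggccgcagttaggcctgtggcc
*Hoxd11* coding transcript, chr2:74682073-74682322: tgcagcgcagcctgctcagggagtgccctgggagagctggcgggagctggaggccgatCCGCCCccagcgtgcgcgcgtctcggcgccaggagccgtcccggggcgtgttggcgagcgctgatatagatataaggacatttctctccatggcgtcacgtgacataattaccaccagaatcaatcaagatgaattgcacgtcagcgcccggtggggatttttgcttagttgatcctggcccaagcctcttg
*Hoxd11* noncoding transcript, chr2:74679308-74679557: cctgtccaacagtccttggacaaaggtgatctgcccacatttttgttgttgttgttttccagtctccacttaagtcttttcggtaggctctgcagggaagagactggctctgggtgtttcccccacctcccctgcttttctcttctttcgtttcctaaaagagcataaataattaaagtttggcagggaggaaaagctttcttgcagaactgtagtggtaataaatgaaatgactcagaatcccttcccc

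The *Hoxd13* sequence held 7 matches to GGGCGG, 5 of them in 1 overlapping row, 2 to TATAAA that overlap on opposite strands, and 1 to CCAAT. Its content of G and C was 74.4%. The *Hoxd9* sequence, at 65.2%, held 1 match to GGGCGG and none to the others. Before the coding transcript of *Hoxd11* there were 20 CpG dinucleotides, before its noncoding transcript only 2. Over the 11 upstream windows of the 9 genes, the median content of G and C was 59.2% against 52.4% for all 32817 windows of the mouse genes, and the median ratio of observed to expected CpG was 0.755 against 0.373. GGGCGG was found in 6 of the 11 windows (54.5%, against 32.7% of all windows), CCAAT in 5 (45.5% against 33.8%) and TATAAA in 2 (18.2% against 12.4%). For the 30 other Hox genes there were only 13 windows, so not every gene is covered. These windows had a median content of G and C of 58.0% and a median ratio of CpG of 0.687. They held GGGCGG in 30.8%, CCAAT in 69.2% and TATAAA in 15.4% of cases. With so few windows these shares are a description only. *Hoxa13*, at a GC content of 80.0%, had 5 matches to GGGCGG, while *Hoxa11* and *Hoxd11* before its noncoding transcript had none of the 3 motifs. These are matches of letters and say nothing of binding in MEFs.

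The 4 posterior genes were the highest of the HoxA cluster, while in HoxD *Hoxd8*, which is not one of the 9, stood above 3 of the 5 posterior genes. On chromosome 6, where HoxA is transcribed from the minus strand, they lie between positions 52223100 and 52260880. Next to them, *Hoxa7* had 132 normalized counts per kb, and *Hoxa9* was 2.45-fold above it (2.32 to 2.60, counting error only). The other 7 HoxA genes lay between 11.1 (*Hoxa3*) and 132 normalized counts per kb, and each of them was below each of the 4 posterior genes. The HoxA genes were highest at *Hoxa10* and *Hoxa11* and lower on either side, with *Hoxa10* 1.90-fold above *Hoxa13* (1.83 to 1.98) and 2.46-fold above *Hoxa9* (2.38 to 2.54). With joined exons these ratios were 2.82 and 3.34, and with the transcript of the highest level per kb 3.31 and 4.28. The transcript taken for *Hoxa13* has 1309 bases in 5 exon blocks, where each other gene of the 9 has 2. Its length, and so its level per kb, are uncertain. On chromosome 2, where HoxD is transcribed from the plus strand, the 5 genes lie between 74668310 and 74700208. Their levels did not follow the order of the genes. *Hoxd13* was 8.33-fold above *Hoxd12* (8.03 to 8.64), *Hoxd11* was 4.16-fold above *Hoxd12* (3.99 to 4.35), and the levels were lower again at *Hoxd10* and *Hoxd9*. The step from *Hoxd12* to *Hoxd11* rests on the short transcript of *Hoxd11*, since the ratio was 1.13 with the longest transcripts and 1.10 with joined exons. The next gene, *Hoxd8*, had 281 normalized counts per kb and was thus 4.53-fold above *Hoxd9* (4.18 to 4.90), and also above *Hoxd10* and *Hoxd12*. With the transcript of the highest level per kb, *Hoxd8* stood at 1280 normalized counts per kb, above every posterior HoxD gene but *Hoxd13*. Beyond it *Hoxd4* had 11.8, *Hoxd3* 9.10 and *Hoxd1* 0.191 normalized counts per kb, all below *Hoxd9*.

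**Figure D2:**
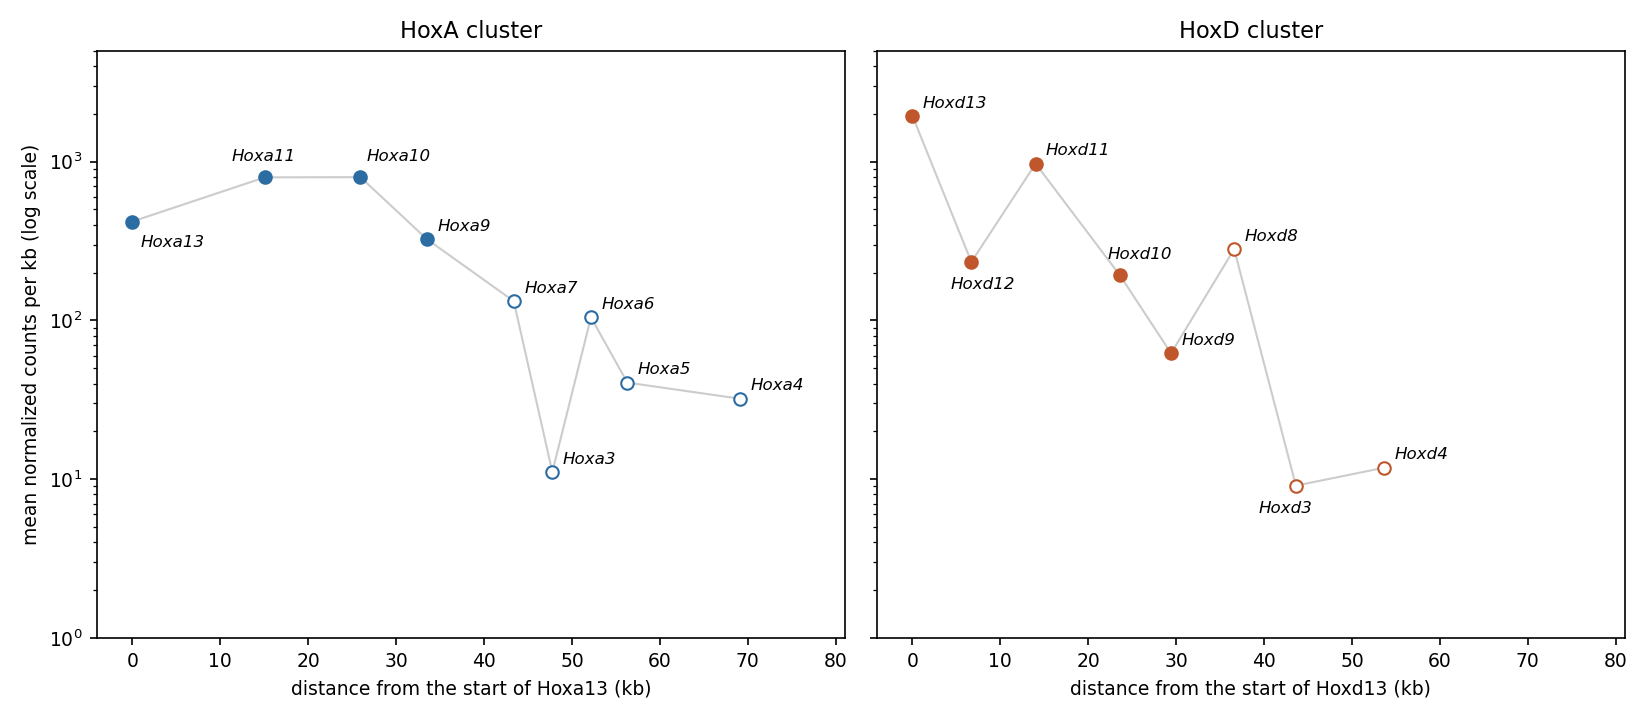
Points give the mean normalized count per kb (log scale) of HoxA and HoxD genes that start within 75 kb of the start of the group 13 gene, against that distance in kb, with the posterior genes filled and lines joining genes in the order of their starts. The filled HoxA points all lie above the open ones, while *Hoxd8* at 281 lies above *Hoxd9*, *Hoxd10* and *Hoxd12*. By the starts of the transcripts taken, *Hoxa3* (47.8 kb) is drawn between *Hoxa7* and *Hoxa6*, and *Hoxd3* (43.6 kb) before *Hoxd4*. The lines there do not follow the numbering of the genes.

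Genes that border the posterior ends differed between the clusters. *Evx2*, a homeobox gene beside *Hoxd13* that shares limb enhancers with it, had 199 normalized counts per kb, and *Hoxd13* was 9.78-fold above it (9.29 to 10.3), or 28.7-fold with joined exons. *Evx1*, its counterpart beyond *Hoxa13*, had a mean of 1.48 normalized counts in all. *Lnpk* and *Mtx2*, genes on the 2 sides of HoxD that are not Hox genes, had 667 and 763 normalized counts per kb. *Hottip*, a noncoding RNA transcribed away from *Hoxa13*, had 46.1, and *Hoxa13* was 9.11-fold above it (8.34 to 9.95), or 5.92-fold with joined exons. *Hoxa11os*, which is antisense to *Hoxa11*, had 1221 normalized counts per kb, 1.53-fold above *Hoxa11* (1.49 to 1.57), a ratio that was 0.917 with joined exons. Exons of the 2 genes share 568 bases on opposite strands. The libraries keep the strand of the RNA, but the strand setting of the counting is not given in the sources used here, so the reads of these bases may have been counted for both or for neither. The levels of *Hoxa11* and *Hoxa11os* are uncertain to that extent.

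Paralogs of the same groups in HoxB and HoxC stood far lower. Of these 7 genes, *Hoxb9* had the highest level, 82.3 normalized counts per kb, which is above *Hoxd9* and below the other 8 posterior HoxA and HoxD genes. *Hoxc10* had 19.1, *Hoxc9* 9.73, *Hoxc13* 7.49, *Hoxc11* 1.93 and *Hoxc12* 1.00 normalized counts per kb. *Hoxb13*, which is known from the prostate and the tail bud, had 0.332. Within groups, *Hoxa9* was 5.23-fold above *Hoxd9* (4.84 to 5.65, counting error only) and *Hoxa10* 4.16-fold above *Hoxd10* (3.96 to 4.37). In group 11 *Hoxd11* was 1.22-fold above *Hoxa11* (1.18 to 1.26), a step that turns round with the long transcript of *Hoxd11*, and in group 13 *Hoxd13* was 4.63-fold above *Hoxa13* (4.46 to 4.81). With joined exons the ratio of *Hoxa9* to *Hoxd9* was 3.02 and that of *Hoxd13* to *Hoxa13* 8.75, and with the transcript of the highest level per kb that of *Hoxa10* to *Hoxd10* was 7.24. HoxA thus had the higher level in groups 9 and 10 and HoxD in group 13 with each length tried. Over all 39 Hox genes, the 6 with the highest levels per kb were members of this set. With each of the 3 other lengths tried 5 of the 6 were, and *Hoxd8* took the remaining place. The 9 genes held 85.1% of the summed Hox level, and between 75.9% and 83.4% with the other lengths. Their median of 419.9 was 35.9-fold above the median of 11.7 over the other 30 Hox genes, and 27.3-fold with joined exons. Of those 30, 2 were above the median of all genes (*Hoxa7* and *Hoxd8*). The 9 genes were chosen with earlier results of these data known, so these contrasts are a description only.

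**Figure D3:**
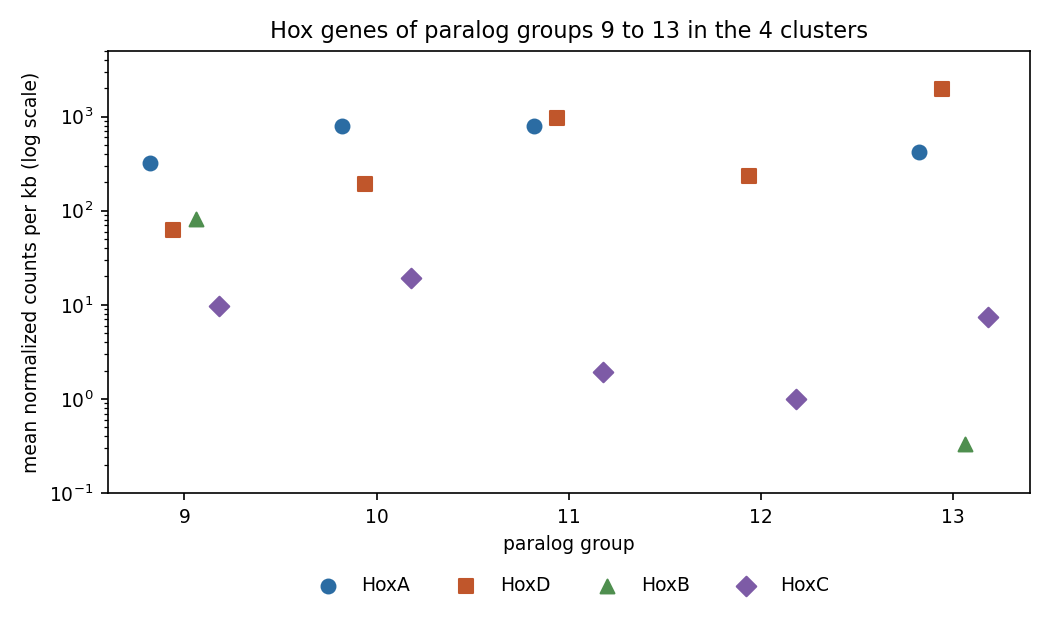
Points give the mean normalized count per kb (log scale) of each Hox gene of paralog groups 9 to 13, by cluster. In each group the HoxA and HoxD genes drawn lie above the HoxC gene, and *Hoxb9* at 82.3 lies just above *Hoxd9* at 62.1.

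The proteins of the set are most alike within a paralog group. In the homeodomain of 60 residues, found in the translated transcripts, 57 residues are the same in HOXA10 and HOXD10 and 57 in HOXA11 and HOXD11. HOXA9 and HOXD9 share 56 and HOXA13 and HOXD13 share 52. The 32 pairs from different groups share between 32 and 49 residues, the most for HOXA9 with HOXA10 and for HOXD9 with HOXD10, both of 49. No 2 of the 9 transcripts have more than 28 bases in a row in common, a run shared by *Hoxd9* and *Hoxd11*.

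Among the 17090 autosomal genes with reads and a known length, the 9 genes were spread over the middle and upper part. The median of all these genes was 131 normalized counts per kb, and 8 of the 9 genes were above it, with *Hoxd9* at percentile 42.6. *Hoxd10* was at percentile 54.6, *Hoxd12* at 57.5, *Hoxa9* at 62.4 and *Hoxa13* at 66.6. *Hoxa11*, *Hoxa10* and *Hoxd11* were above the upper quartile of 717 normalized counts per kb, at percentiles 76.7, 76.8 and 79.7. Against the same quartile *Hoxd11* was below it with its longest transcript, and *Hoxa10* and *Hoxd11* were below it with joined exons. *Hoxd13* was at percentile 88.7, with 1928 genes above it. Among only genes with a mean of at least 10, *Hoxa9*, *Hoxd12*, *Hoxd10* and *Hoxd9* were below the median. Their percentiles there were 48.8, 42.2, 38.3 and 22.6. The median of the 9 genes, 419.9 normalized counts per kb, was 3.21-fold that of all genes. This member median was 325 with the longest transcripts and 233 with joined exons. For comparison, *Anp32e*, the gene targeted in the null MEFs, had a pooled level of 669 normalized counts per kb. Its level per genotype, which would check the labels, is not part of the values used here.

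**Figure D4:**
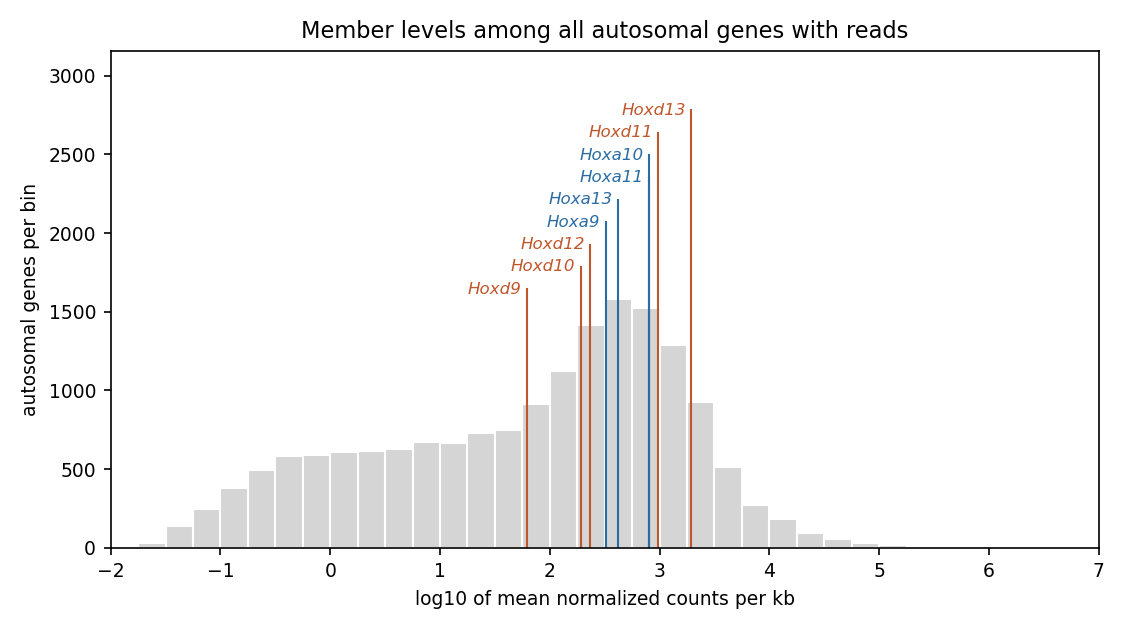
Grey bars count the 17090 autosomal genes by the log10 of their mean normalized count per kb, and lines mark the 4 HoxA (blue) and 5 HoxD genes (orange), with heights that serve only to separate the names. *Hoxd9* lies in the lower part of the main peak and *Hoxd13* at its upper edge, at percentile 88.7; *Hoxa10* and *Hoxa11* coincide.

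Other genes of limb patterning were read from a list of 46. Of these 37 had a mean of at least 10 normalized counts (80.4%, against 74.1% of all autosomal genes with reads), and their median was 81.7 normalized counts per kb. The highest were *Prrx2*, a homeobox gene of the limb mesenchyme, with 3696 normalized counts per kb, the FGF receptor *Fgfr2* with 1450 and *Hoxa11os* with 1221. Only *Prrx2* was above *Hoxd13*, and 20 of the 46 were below *Hoxd9*. Over all 17090 genes, 1928 were above *Hoxd13* and 42.6% were below *Hoxd9*, so the share of limb genes below *Hoxd9* was near that of all genes. *Shh*, the signal of the posterior limb margin, *Fgf4*, a signal of the apical ridge, and *Sall4* were listed at 0. A count of 0 in the 6 libraries allows a mean of up to 0.55 normalized counts, by counting error only. The TALE homeobox genes *Meis*, *Pbx* and *Pknox* encode proteins that bind DNA together with Hox proteins. All 9 of them had a mean of at least 10 normalized counts, against 74.1% of all autosomal genes with reads. *Pbx2* and *Pbx3* had 520 and 393 normalized counts per kb, and *Meis1*, *Pknox2* and *Pbx4* had the lowest levels, 56.3, 56.7 and 63.1. *Meis2*, with a mean of 460.03 normalized counts, had no matched length.

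The labelled cell type was checked against its markers. Of 10 fibroblast genes 9 had a mean of at least 10 normalized counts, with *Col1a1* at 4408 and *Vim* at 150796 normalized counts per kb, and *Lum* at a mean of only 1.33. Among markers of other cells, all 4 mesothelial genes had means of at least 10, between 109 and 605 normalized counts, as did 3 of 6 epithelial, 3 of 4 chondrocyte, 2 of 5 endothelial, 2 of 5 macrophage and 2 of 5 skeletal muscle genes and 0 of 4 neural crest and glial genes. Beside the 74.1% of all genes, and with lists this short, these counts are a description only. The highest markers outside the fibroblast list were *Acta1* of muscle, *Kdr* of vessels and *Krt18* of epithelia, with means of 4711, 2958 and 1106 normalized counts. The defining muscle genes *Myod1* and *Myf5*, *Col9a1* of cartilage, *Emcn* of vessels and *Foxd3* of the neural crest were listed at 0. *Col2a1*, also of cartilage, had a mean of 577 normalized counts. The part of other cells in the levels of the Hox genes was not tested, and in such pooled bulk RNA fewer cells that express a gene and less RNA per cell cannot be told apart.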

How the data were processed

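RNA-Seq libraries of 3 WT and 3 *Anp32e* null MEF samples were made from total RNA with a stranded kit. Per the labels and methods, the authors aligned reads to mm10 with STAR, counted them per RefSeq transcript with featureCounts and ran DESeq2. The release of the annotation and the handling of shared reads are not given in the sources used here. The deposited signal column is the authors' mean over 6 libraries of counts divided by DESeq2 size factors. The other 5 value columns hold the authors' own comparison of the genotypes (fold change, its error, test statistic and p-values) and were not used. No comparison between genotypes was therefore made, no test was run, and total counts per library are unknown.

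Of 42361 transcripts, 42203 were matched to genes with RefSeq of GRCm38.p6, and 7019 had no reads. Exon lengths, positions and homeodomains came from GENCODE M21 transcripts matched by RefSeq accession, for 92.0% of autosomal genes with reads. The size factors were computed from the 6 smallest means, each made by 1 read, and this step was tested on simulated data. Counting intervals (95%, exact Poisson for levels and log-normal for ratios) assume the fewest reads a mean allows and cover counting error only. Recovering whole counts per library was planned, but even for *Hoxd9* about 16.3 sets of counts would fit the printed digits, so none is given. The members, the lists of limb, cofactor and marker genes and the rule for named genes (all members, their HoxB and HoxC paralogs, the neighbours *Evx1*, *Evx2*, *Lnpk*, *Hoxa11os*, *Hottip*, *Hoxa7* and *Hoxd8*, the 3 highest and 3 lowest of each list, defining markers and *Anp32e*) were chosen with earlier results of these data known. *Mtx2* and the anterior Hox genes were added after their values were seen. Values that the rule would name for a few genes are not reported here. Python 3.11.15, numpy 2.4.6, pandas 2.3.3, scipy 1.17.1, biopython 1.88 and matplotlib 3.10.9 were used.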

Additional observations from a re-analysis of the deposited data

How the results depend on the processing

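With the exons of all transcripts of a gene joined, the median of the HoxA genes was 424 instead of 608 normalized counts per kb, and that of the HoxD genes did not move. Without division by length the medians were 1435 and 592 normalized counts, in the same order. Under that joining of exons the levels of *Hoxa9*, *Hoxa10*, *Hoxa13* and *Hoxd11* moved past their counting intervals, to 188, 627, 222 and 256 normalized counts per kb. The level of *Hoxd11* was 264 with its longest transcript, and that of *Hoxa10* 1389 with the transcript of the highest level per kb. The other levels stayed within counting error under these 3 settings. Against only genes with a mean of at least 10 the percentile of *Hoxd13* fell by 4.06 points and that of *Hoxd9* fell by 19.9, with the others between them, and with genes at 0 included the percentiles were 2.57 to 13.1 points higher. With X and Y genes included they moved by at most 0.263 points. Of the 30 other Hox genes, 8 had a mean of at least 50, against 23 at 10 (76.7%) and 27 at 1. Of the 18582 autosomal genes with reads, 11940 had a mean of at least 50, against 13769 at 10 (74.1%) and 16558 at 1. All 9 members passed each minimum. Leaving out a library in turn was not run, since counts per library were not recovered. No paired analysis was possible because the values used pool all libraries.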
